A study of Mus musculus with 4 samples.

Results

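Sertoli cells, the somatic nurse cells inside the seminiferous tubules, release protease inhibitors, small antimicrobial-type peptides and carrier proteins into the tubule. Described here are 7 transcripts of such products, Cst9, Cst12, Defb19, Defb36, Clu, Ctsl and Trf, which were taken by gene symbol from a table of 28595 genes in mouse testis. All 7 were in the table, and 6 of them passed the filter on low counts, the exception being Trf. The groups were H3t KO entire section, WT entire section, H3t KO Leydig and WT Leydig, with 3 libraries each. They were made by photo-isolation chemistry, in which ultraviolet light frees caged primers, and cDNA from the lit area of a section alone is amplified. Tissue sections were 10 µm thick. By the labels, light fell either on the whole section or only on Leydig cells, the steroid-making cells between tubules. H3t is a testis histone H3 variant, and the series asks how testes of mice lacking it, in which spermatogenesis is disrupted, and their Leydig cells are altered. The WT titles carry the word young, while no age is given for the H3t KO groups, and no label gives a strain. Whether the 3 libraries of each group stem from different mice is not stated, and p-values here measure library-to-library spread, which may be technical. The deposited barcode sheet gives each group a single library name of its own, and pool and group cannot be told apart.

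Sertoli cells feed germ cells across a barrier of tight junctions that keeps blood proteins out of the inner tubule. Cystatins are inhibitors of cysteine proteases, and cathepsin L, encoded by Ctsl, is one such protease, released by Sertoli cells in its precursor form in rats. Beta-defensins are small cationic peptides, known mainly from epithelia and the male tract. Transferrin, encoded by Trf, carries iron to germ cells behind the barrier, and clusterin, encoded by Clu, is a secreted chaperone also known as sulfated glycoprotein 2.

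Both cystatins and both defensins lie on mouse chromosome 2. In GRCm38 with GENCODE vM21, Cst12 (chromosome 2, 148789361 to 148793546, plus strand) and Cst9 (148835147 to 148838738, plus strand) were 41600 bases apart, with Cst8 and Cst13 between them. Defb19 (152576086 to 152580312, minus strand) and Defb36 (152604327 to 152612729, plus strand) were 24014 bases apart, with Defb45 between them. Clu was on chromosome 14 (65968483 to 65981547, plus strand), Ctsl on chromosome 13 (64359337 to 64370890, minus strand) and Trf on chromosome 9 (103204001 to 103230444, minus strand). Defb36 overlapped the pseudogene Gm14163, Ctsl overlapped the antisense gene Gm47123 and the pseudogene Gm49230, and Trf overlapped Gm20425. Whether counting used the strand is not stated, and reads of such overlapping genes may be shared.

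RefSeq promoter windows of GRCm38.p6 were matched for 4 of the 7 genes. The 250 bases upstream of 3 of them are shown, because Cst12 and Cst9 are cluster neighbours whose counts differed in their response, and Defb36 had the largest fitted fold change. The windows are chr2:148789115-148789364 for Cst12, chr2:148834897-148835146 for Cst9 and chr2:152604077-152604326 for Defb36, all on the plus strand and written 5′ to 3′. Capitals mark GATAA, the core read by GATA factors, and AGAACA, a half-site of the androgen receptor, on either strand.
Cst12: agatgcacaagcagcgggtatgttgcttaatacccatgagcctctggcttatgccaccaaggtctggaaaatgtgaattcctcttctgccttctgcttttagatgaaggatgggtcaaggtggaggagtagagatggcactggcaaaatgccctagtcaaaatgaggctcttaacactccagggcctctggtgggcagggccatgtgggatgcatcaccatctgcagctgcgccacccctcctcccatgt
Cst9: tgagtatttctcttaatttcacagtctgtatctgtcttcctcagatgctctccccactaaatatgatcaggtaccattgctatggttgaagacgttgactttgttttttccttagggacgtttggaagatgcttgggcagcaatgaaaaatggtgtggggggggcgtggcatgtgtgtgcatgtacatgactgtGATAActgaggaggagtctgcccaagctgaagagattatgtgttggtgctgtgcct
Defb36: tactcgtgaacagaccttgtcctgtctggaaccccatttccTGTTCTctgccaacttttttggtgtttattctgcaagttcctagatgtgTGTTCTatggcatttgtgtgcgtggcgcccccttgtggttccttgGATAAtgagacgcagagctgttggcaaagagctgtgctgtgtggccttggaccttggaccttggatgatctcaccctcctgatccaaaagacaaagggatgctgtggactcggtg
The Cst9 window held GATAA once, the Defb36 window held it once and TGTTCT, the reverse complement of AGAACA, on 2 occasions, and the Cst12 window held neither. Of 32851 RefSeq windows of this length, 22.6% held GATAA and 16.1% held AGAACA on either strand, with no overlap between these 2 motifs' letters in the windows shown. The SOX core ACAAT, present in 27.7% of all windows, was in none of the 3. These motifs were chosen after the sequences had been seen, and a match is a description of letters only.

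The libraries differed in depth and in their mix of cells. Entire-section libraries held 321771 to 475764 counts in H3t KO and 247539 to 566527 in WT, and Leydig libraries 15208 to 53003 in H3t KO and 5947 to 54882 in WT. The targeted gene, listed as H3f4, had 0 counts in all H3t KO libraries and 1 count in 1 WT library, too few to check the labels. Transcripts of 22 Sertoli regulator and junction genes made up 0.611% of counts in H3t KO sections and 0.191% in WT sections, and 0.262% in H3t KO Leydig and 0.165% in WT Leydig libraries. The 7 spermatid markers made up 0.0355% in H3t KO sections and 3.90% in WT sections. Leydig markers made up 1.77% in H3t KO sections and 0.325% in WT sections, and macrophage markers made up 0.137% in H3t KO sections and 0.0246% in WT sections. In the Leydig libraries, Leydig markers made up 3.28% in H3t KO and 0.973% in WT. These libraries were thus richer in them than sections of the same genotype, and Sertoli transcripts were still present. Germ cell transcripts were present in WT Leydig libraries too. Spermatocyte markers made up 0.612% there and 0.680% in WT sections, and spermatid markers 1.83% there. The WT Leydig libraries therefore did not hold Leydig cell transcripts alone. Of 9 epididymis and rete testis markers 6 were in the table, and they summed to between 1 and 5 counts per H3t KO section and to 6 counts in each WT section, with Crisp1 at 0 in both. In sections, fewer cells of a type and less RNA per cell cannot be told apart.

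**Figure D1:**
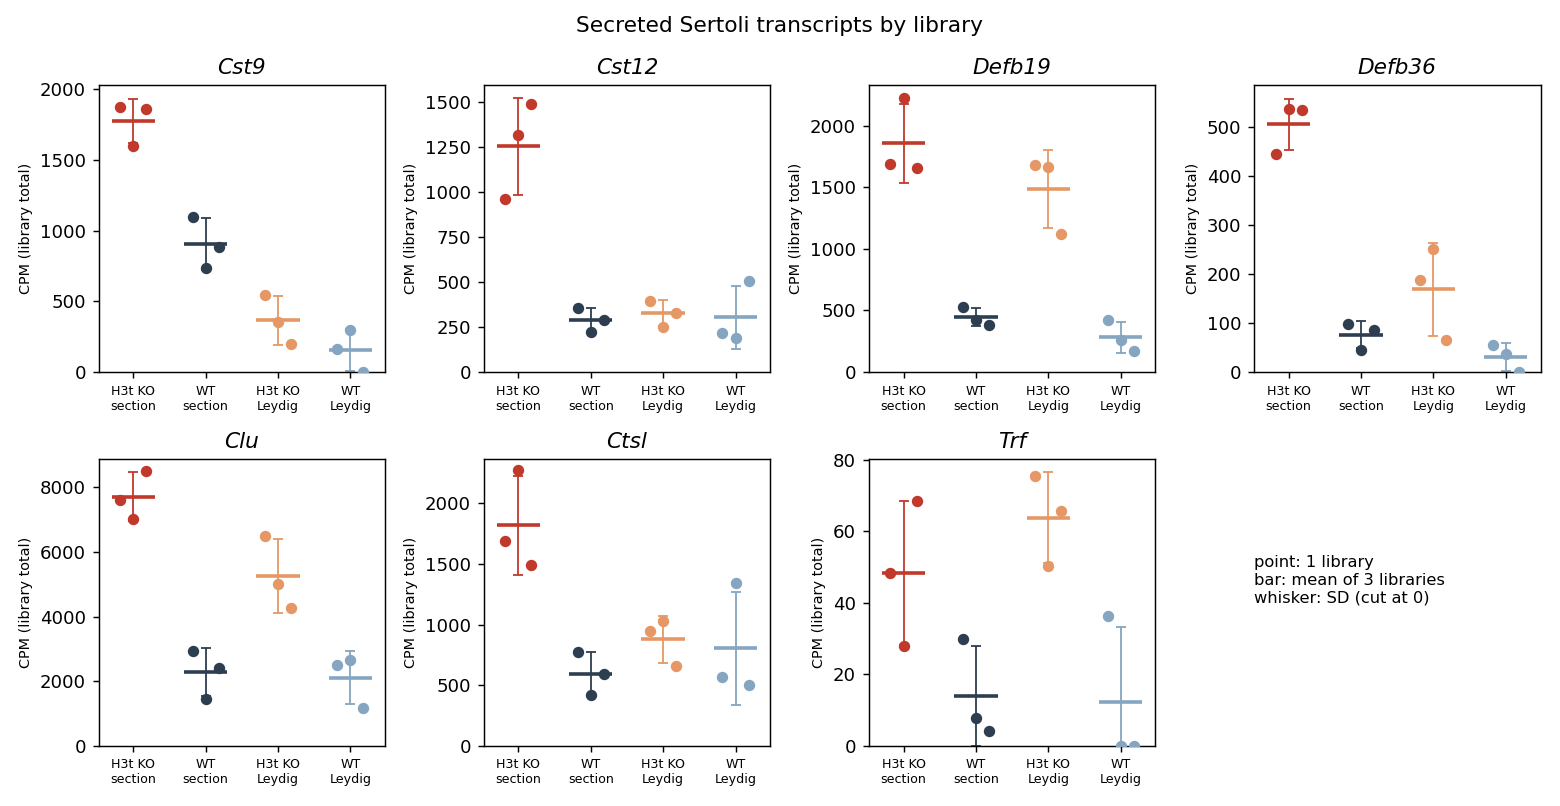
Level of each gene in CPM (its counts scaled to a common library total) in each library, with the mean (bar) and SD (whisker) of the 3 libraries of H3t KO section, WT section, H3t KO Leydig and WT Leydig. All genes other than Trf lie higher in every H3t KO section than in any WT section, and Cst9 is low in both Leydig groups.

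These transcripts made up a larger share of counts in H3t KO sections than in WT sections. The 7 genes together made up 1.5% ± 0.0657 of counts in H3t KO sections and 0.459% ± 0.125 in WT sections (SD, n = 3 each). In edgeR's quasi-likelihood test, 5 of the 6 genes tested rose: Cst12, Defb19, Defb36, Clu and Ctsl. Of all 5182 genes tested, 22.6% were called higher and 39.1% lower at a Benjamini-Hochberg adjusted p under 0.05. The CPM of all 6 genes did not overlap between the genotypes, which held in the same direction for 39.6% of all genes tested. Their median log2 fold change was 1.34, beside -0.35 over all genes tested. The Sertoli, Leydig, macrophage and spermatid marker shares moved with this comparison as given above. Spermatocyte markers made up 0.0148% of counts in H3t KO sections and 0.680% in WT sections. The part of all these markers in the result was not tested.

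Cst9, also called testatin, is a cystatin first described in the fetal testis. Its CPM was 1877, 1599 and 1858 in H3t KO sections and 1096, 733 and 881 in WT sections. Each H3t KO section was above each WT section, yet the fitted log2 fold change was 0.41 ± 0.45 (edgeR, adjusted p = 0.435). The result depended on scaling: with library size alone it was 0.98 (edgeR, adjusted p = 0.0138), and without H3t KO Leydig replicate 3, which shares the fit, it was 1.04 (adjusted p = 0.0233). In a fit of the section groups alone it was 0.74 (edgeR, adjusted p = 0.0356).

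Cst12, a second cystatin of the same cluster, had CPM of 958, 1316 and 1486 in H3t KO sections and 355, 222 and 287 in WT sections. The lowest H3t KO section was above the highest WT section by more than the whole range of the WT values. Cst12 rose by 1.55 ± 0.46 on the log2 scale (edgeR, adjusted p = 0.00164).

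Defb36 had CPM of 446, 538 and 535 in H3t KO sections and 98.8, 45.9 and 84.8 in WT sections. The H3t KO libraries lay close together, and no WT library came near them. This defensin rose by 2.17 ± 0.46 (edgeR, adjusted p = 9.04e-06), the largest fitted change of the 6 genes. Defb19, the defensin across Defb45 from it, had CPM of 1688, 2229 and 1660 in H3t KO sections and 531, 425 and 384 in WT sections. All H3t KO values were again above all WT values, and Defb19 rose by 1.46 ± 0.46 (edgeR, adjusted p = 0.00341).

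Clu had CPM of 7603, 7015 and 8525 in H3t KO sections and 2932, 1464 and 2420 in WT sections. It rose by 1.22 ± 0.45 (edgeR, adjusted p = 0.0132). WT replicate 2 was the lowest WT section for Clu, and also for Cst9, Cst12, Defb36 and Ctsl. Ctsl had CPM of 1690, 2272 and 1492 in H3t KO sections and 775, 415 and 594 in WT sections. It rose by 1.05 ± 0.46 (edgeR, adjusted p = 0.0365). Same-numbered sections of the genotypes deviated together, and with replicate number as a block Ctsl was at 1.0 with an adjusted p of 0.0723 in edgeR and was no longer called, leaving 4 called genes.

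Trf was read at low counts. It had 23, 11 and 22 counts (48.3, 28 and 68.4 CPM) in H3t KO sections and 17, 4 and 1 counts (30.0, 7.65 and 4.04 CPM) in WT sections. The highest WT section overlapped the lowest H3t KO section. Summed counts over summed library totals gave an H3t KO to WT ratio of 2.86 (95% exact Poisson interval 1.72 to 4.92, counting error only). An exact two-sided permutation test of CPM gave p = 0.2, where 0.1 is the smallest p that 3 against 3 libraries allow. With no filter on low counts, edgeR gave 1.36 ± 0.55 with an adjusted p of 0.0494. In the fits that left out a Leydig library, where Trf passed the filter, it was between 1.20 and 1.66 (edgeR, adjusted p between 0.00347 and 0.0472).

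The fold changes of the 5 genes that rose were each larger by over 1.5-fold when H3t KO Leydig replicate 3, a shallow library that takes part in the shared scaling, was left out: 2.18 for Cst12, 2.09 for Defb19, 2.79 for Defb36, 1.84 for Clu and 1.65 for Ctsl on the log2 scale. That fit repeated the filter and the scaling, as did every fit that left out a library, so the genes tested changed too. The median of all tested genes moved with the scaling as well, being -0.35 with the trimmed mean of M values and 0.22 with library size alone. Of all calls, 36.6% were higher in H3t KO with the first scaling and 52.2% with the second. When libraries were scaled to the summed Sertoli regulator and junction counts that median was -1.54, the share of higher calls was 4.94%, and none of the 6 genes was called by edgeR, against 1 with an unadjusted p under 0.05 and 5 called by DESeq2 with its own size factors.

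**Figure D2:**
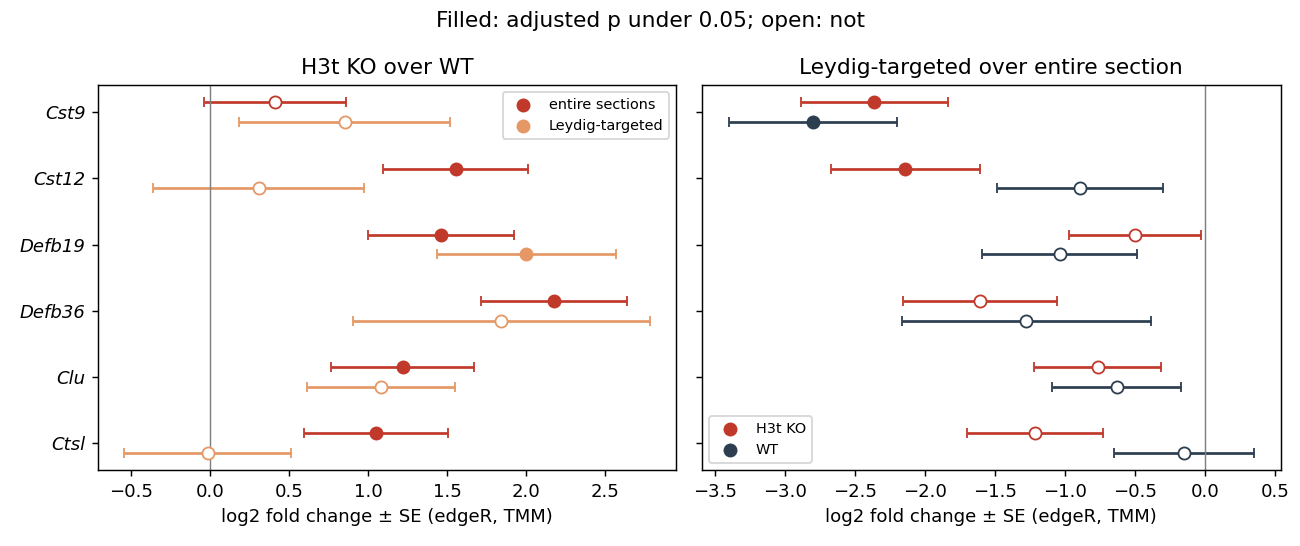
Fitted log2 fold change ± SE for the 6 genes tested, H3t KO over WT on the left and Leydig over entire section on the right, with filled points for an adjusted p under 0.05. In entire sections 5 genes are called higher in H3t KO, in Leydig libraries Defb19 is, and Cst9 is called lower in Leydig than in section libraries of both genotypes.

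Counts were also set against other Sertoli transcripts of the same library. All 7 together gave 2.26, 2.40 and 2.71 counts per Sertoli regulator and junction count in H3t KO sections and 2.23, 2.89 and 2.34 in WT sections. The groups overlapped, with means of 2.46 ± 0.229 and 2.49 ± 0.356 (SD, n = 3 each; exact permutation test, two-sided, p = 0.9). A p of this size does not show that the ratios are equal. Cst12, Defb19, Clu, Ctsl and Trf also overlapped, at 0.929 to 1.31 times the WT mean.

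Cst9 and Defb36 stood apart on this scale, in opposite directions. Cst9 gave 0.297, 0.256 and 0.323 counts per Sertoli count in H3t KO sections and 0.420, 0.640 and 0.443 in WT sections. Every H3t KO value was below every WT value, and the mean was 0.582 times that of WT. Defb36 gave 0.0705, 0.0861 and 0.0928 in H3t KO sections and 0.0379, 0.0401 and 0.0427 in WT sections. Every H3t KO value was above every WT value, and the mean was 2.07 times that of WT. Both had an exact two-sided permutation p of 0.1, the smallest possible, and 0.4 after Benjamini-Hochberg adjustment over 8 ratios, so neither passed a threshold. With 17 other secreted Sertoli genes as the denominator, the ratio was 0.448 for Cst9 and 1.59 for Defb36, again with no overlap, and Clu, at 0.803, no longer overlapped either. On that denominator all 7 genes together also separated, with 4.85, 5.51 and 4.94 counts per count in H3t KO sections and 6.48, 7.53 and 6.13 in WT sections. Every H3t KO value was below every WT value, at 0.76 times the WT mean (exact permutation test, two-sided, p = 0.1, the smallest possible, and 0.2 adjusted over 8 ratios), so the result for the sum depended on the denominator.

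**Figure D3:**
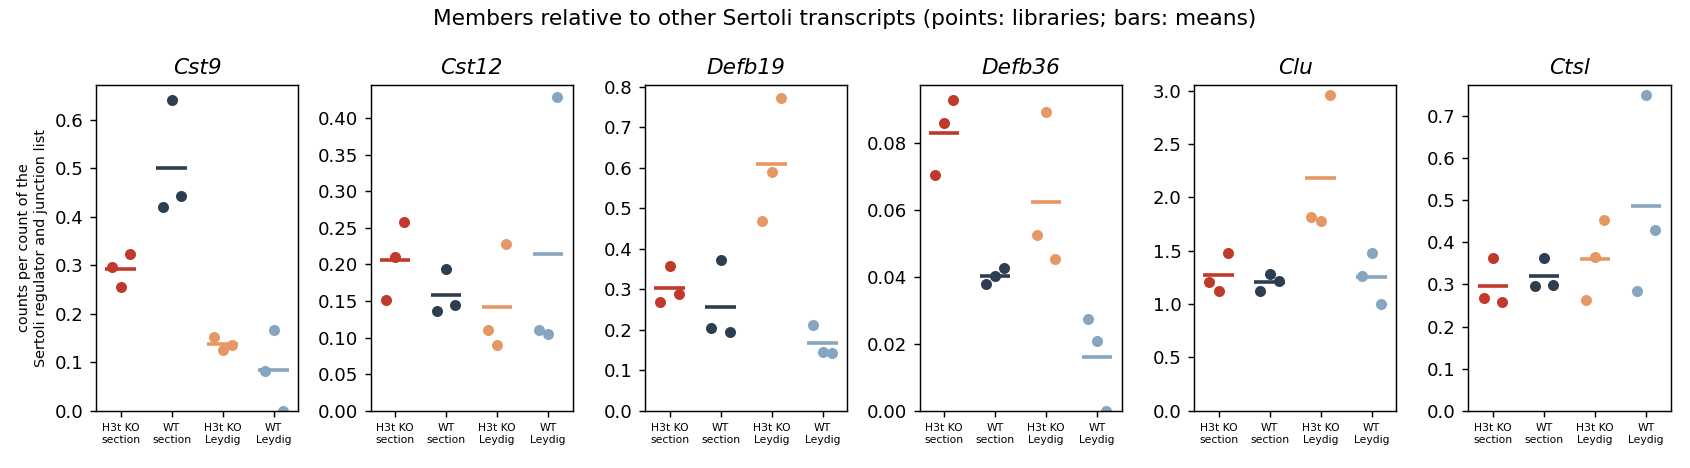
Counts of each of the 6 genes per count of the Sertoli regulator and junction list in each library, with group means as bars. In sections, Cst9 lies lower and Defb36 higher in H3t KO than in WT, and the other 4 genes overlap.

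Ratios between pairs of these genes within a library need no scaling, and gene length cancels when 1 ratio is compared across groups. Cst12 per Cst9 was 0.511, 0.823 and 0.799 in H3t KO sections and 0.324, 0.303 and 0.326 in WT sections. The WT values lay within a narrow band, and all H3t KO values were above it, with a mean 2.24 times as high. Defb36 per Defb19 was 0.264, 0.241 and 0.322 in H3t KO sections and 0.186, 0.108 and 0.221 in WT sections, again with no overlap. Clu per Cst9 was 4.05, 4.39 and 4.59 in H3t KO sections and 2.67, 2.0 and 2.75 in WT sections, and its groups did not overlap either. Ctsl per Cst9 and Defb19 per Cst9 were higher in H3t KO sections too, by 1.60 and 2.12 times. All ratios but Defb36 per Defb19 share Cst9 as the denominator, so they are not independent results. The 5 ratios were chosen after values had been seen, and each had an exact two-sided permutation p of 0.1, the smallest possible, and 0.111 adjusted over the 10 comparisons made of such ratios.

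Genes of the cystatin cluster differed in direction, a comparison chosen after values had been seen. Cst8, a cystatin of male germ cells and epididymis, had CPM of 73.6, 127 and 134 in H3t KO sections and 229, 348 and 283 in WT sections. It fell by 2.0 ± 0.45 on the log2 scale (edgeR, adjusted p = 3.59e-05), with no overlap between groups. Cst13, a testis cystatin, had 0, 0 and 2 counts in H3t KO sections and 22, 36 and 16 in WT sections. In summed counts over summed library totals, WT was higher than H3t KO by 32.9 times (95% exact interval 8.80 to 277, counting error only). Cst12 and Cst9, the ends of the stretch compared, had higher CPM in H3t KO sections, and Cst8 and Cst13 between them had lower CPM. Spermatid marker shares were 0.0355% in H3t KO sections and 3.90% in WT sections in the same libraries, and their part in the Cst8 and Cst13 values was not tested.

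**Figure D4:**
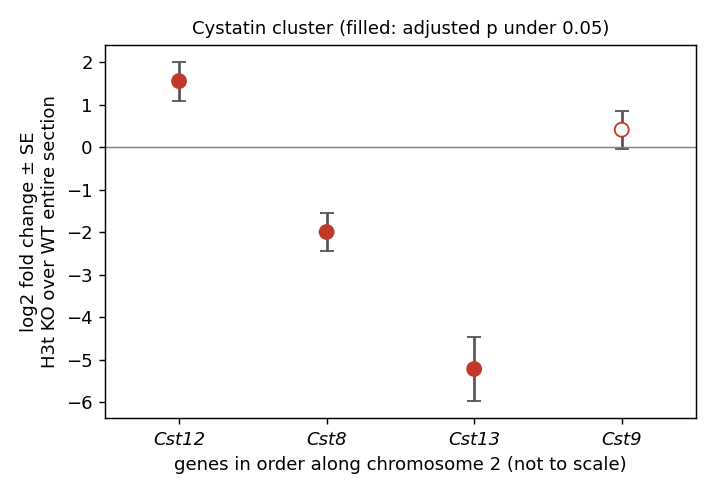
Fitted log2 fold change ± SE of H3t KO over WT entire sections for the cystatin genes Cst12, Cst8, Cst13 and Cst9 in their order along the chromosome, with filled points for an adjusted p under 0.05. Cst12 is higher, Cst8 and Cst13 are lower, and Cst9 is not called. The Cst13 value rests on 2 H3t KO counts.

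Other beta-defensins had few counts. Defb45, between Defb19 and Defb36, had 8 counts in all H3t KO sections and 6 in all WT sections. The 18 other beta-defensin genes in the table were taken by name and not by position. They summed to between 3 and 8 counts in each H3t KO section and to between 17 and 46 in each WT section. None passed the filter. In H3t KO Leydig libraries all 18 were at 0, and in WT Leydig libraries they summed to 7, 1 and 0 counts. With so few counts in the deeper sections, 0 counts in Leydig libraries do not show a difference.

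Among 9 cystatin genes outside these 7, 4 were tested in sections, of which Cstb and Cst3 rose and Cst8 and Cst13 fell. Cstb, an inhibitor that stays inside cells, rose by 2.44 ± 0.48 (edgeR, adjusted p = 1.68e-06), and Cst3, the widely made cystatin C, by 2.01 ± 0.47 (adjusted p = 6.85e-05). Of 6 other cathepsin-type proteases tested, 5 rose and none fell, with a median of 2.02. Ctsh, an aminopeptidase, rose by 3.00 ± 0.51 and Lgmn, the asparagine endopeptidase, by 2.62 ± 0.51. These proteases also occur in macrophages, whose markers were at 0.137% of counts in H3t KO sections and 0.0246% in WT sections, and that part was not tested.

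Of 4 iron handling genes tested, 2 rose in H3t KO sections and none fell. Fth1, the heavy chain of the iron store ferritin, rose by 2.67 ± 0.48, and Slc11a2, an iron transporter, by 1.06 ± 0.43 (edgeR, adjusted p = 0.0252). All 4 tested genes of the list of clusterin receptors and lipid carriers rose, with a median of 2.71. Apoc1, an apolipoprotein, rose by 3.75 ± 0.58.

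Other Sertoli genes were higher in H3t KO sections too. Of 13 regulator and junction genes tested 10 rose and none fell, with a median of 1.19. They included the transcription factor Sox9 (2.47 ± 0.47) and the filament protein Vim (2.20 ± 0.47). Of 9 other secreted Sertoli genes tested 8 rose and none fell, with a median of 1.85. They included Kitl, the ligand of Kit (2.30 ± 0.47), and Inha, the inhibin alpha subunit (1.91 ± 0.46).

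In Leydig libraries, H3t KO against WT gave fewer calls at the lower depth, and Defb19 was the 1 called of 6 genes tested. Over all 5182 genes, 7.55% were called higher and 20.9% lower there. The 7 genes made up 0.855% ± 0.182 of counts in H3t KO Leydig and 0.370% ± 0.123 in WT Leydig libraries (SD, n = 3 each). The CPM of Defb19, Defb36 and Clu did not overlap between genotypes, which held in the same direction for 13.5% of all genes tested. The median log2 fold change of the 6 genes was 0.97, beside -0.28 over all genes. Leydig markers made up 3.28% of counts in H3t KO Leydig and 0.973% in WT Leydig libraries, and spermatid markers 0.00398% in H3t KO Leydig and 1.83% in WT Leydig libraries. Macrophage markers made up 0.0955% (0.0529% to 0.155%) in H3t KO Leydig and 0.0185% (0.0168% to 0.02%) in WT Leydig libraries, with 1 of 4 tested markers called higher and Adgre1 at 0 counts in both groups. The part of these markers in the values was not tested.

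Defb19 had 89, 66 and 17 counts (1679, 1663 and 1118 CPM) in H3t KO Leydig and 23, 7 and 1 counts (419, 261 and 168 CPM) in WT Leydig libraries. Every H3t KO library was above every WT library. Defb19 rose by 2.0 ± 0.57 (edgeR, adjusted p = 0.00357). The size moved in fits that left out single WT libraries. It was 3.22 without WT Leydig replicate 1 and 1.25 without WT Leydig replicate 3, where edgeR gave an adjusted p of 0.0903. Without H3t KO Leydig replicate 2 it was 1.67 with an adjusted p of 0.0696.

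Clu had 345, 199 and 65 counts (6509, 5014 and 4274 CPM) in H3t KO Leydig and 138, 71 and 7 counts (2514, 2644 and 1177 CPM) in WT Leydig libraries. The groups did not overlap, and the fitted value was 1.08 ± 0.47 (edgeR, adjusted p = 0.0688). It passed the threshold with library size alone (1.24, adjusted p = 0.0209), in DESeq2 (1.0, adjusted p = 0.0430) and without WT Leydig replicate 1 (1.89, adjusted p = 0.0363). Defb36 had 10, 10 and 1 counts in H3t KO Leydig and 3, 1 and 0 counts in WT Leydig libraries, with a fitted value of 1.84 ± 0.94 (edgeR, adjusted p = 0.129).

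The cystatins and Ctsl overlapped between genotypes in Leydig libraries. Cst9 had 29, 14 and 3 counts in H3t KO Leydig and 9, 8 and 0 in WT Leydig libraries, with a fitted value of 0.85 ± 0.67 (edgeR, adjusted p = 0.359). Cst12 had 21, 10 and 5 counts in H3t KO Leydig and 12, 5 and 3 in WT Leydig libraries, at 0.31 ± 0.67 (adjusted p = 0.773). Ctsl had 50, 41 and 10 counts in H3t KO Leydig and 31, 36 and 3 in WT Leydig libraries, at -0.02 ± 0.53 (adjusted p = 0.990). WT Leydig replicate 3 held only 5947 counts, so 0 counts of Cst9 there allows up to 620 CPM (upper end of the 95% exact Poisson interval). Trf had 4, 2 and 1 counts in H3t KO Leydig and 2, 0 and 0 in WT Leydig libraries. Its ratio of summed counts over summed library totals was 2.84 (95% exact interval 0.542 to 28.1). The exact permutation test of its CPM gave p = 0.1, the smallest possible.

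The genotype differences of sections and Leydig libraries were compared with an interaction term. None of the 6 genes was called in edgeR, and none had an unadjusted p under 0.05. DESeq2 also called none and gave 2 an unadjusted p under 0.05, while 0.328% of all genes tested were called by edgeR. The smallest p-values were those of Cst12, with a difference in log2 fold change of -1.25 ± 0.81 (edgeR, adjusted p = 0.639), and of Ctsl, with -1.07 ± 0.70 (adjusted p = 0.639). Both sizes moved in fits that left out single libraries, and with the library totals. Leaving out each library gave -2.13 (without H3t KO section replicate 1) to -0.74 (without WT Leydig replicate 1) for Cst12, and -2.03 (without WT Leydig replicate 3) to -0.23 (without WT Leydig replicate 2) for Ctsl. With library totals recomputed after the filter they were -1.94 ± 0.82 and -1.76 ± 0.71, with edgeR adjusted p-values of 0.251 for Cst12 and 0.226 for Ctsl. A differing response of any of the genes in the lit areas was therefore not shown.

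Among related genes in Leydig libraries, Apoc1 rose by 2.94 ± 0.73 (edgeR, adjusted p = 8.40e-04), and 3 of 4 tested genes of its list were called. Cstb had 43 counts in H3t KO Leydig and 3 in WT Leydig libraries. Its ratio of summed counts over summed library totals was 11.6 (95% exact interval 3.73 to 58.7). Cst13 had 1 count in H3t KO Leydig and 13 in WT Leydig libraries, WT being higher by 16.0 times (2.40 to 680). Aco1, an aconitase that also acts as an iron regulatory protein, had 17 counts in H3t KO Leydig and 0 in WT Leydig libraries, at least 4.60-fold higher when the WT group is given 3 counts in sum. The 13 regulator and junction genes had a median of 0.47 there, and of 9 other secreted Sertoli genes 1 was higher, Timp2, a metalloprotease inhibitor, at 1.90 ± 0.58, with an adjusted p of 0.00741 in edgeR that became 0.0831 without WT Leydig replicate 3. The cathepsin Ctsb was called higher at 1.51 ± 0.54 (edgeR, adjusted p = 0.024), with an adjusted p of 0.388 without WT Leydig replicate 3. Its call was lost without any 1 of 7 of the 12 libraries, and that of Timp2 without any 1 of 3. The macrophage marker shares given above moved with Apoc1 and Ctsb, and their part was not tested.

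Leydig libraries were compared with sections of the same genotype. In H3t KO, Cst9 and Cst12 were called lower in Leydig libraries than in sections, 2 of 6 genes tested, beside 3.53% of all genes. In WT, Cst9 was called lower, 1 of 6 genes, beside 12.4% of all genes. The median of the 6 genes was -1.41 in H3t KO and -0.97 in WT, beside -0.42 and -0.67 over all genes tested. The CPM of 5 of the 6 genes in H3t KO did not overlap between lit areas, the exception being Defb19, and 21.8% of all genes did so in the same direction. In WT this held for Cst9 alone of the 6 genes, and for 21.4% of all genes.

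Cst9 had CPM of 547, 353 and 197 in H3t KO Leydig libraries and 1877, 1599 and 1858 in H3t KO sections. It fell by 2.36 ± 0.53 (edgeR, adjusted p = 0.00127), and the value was -3.0 without H3t KO Leydig replicate 1. In WT it had 164, 298 and 0 CPM in Leydig libraries and 1096, 733 and 881 in sections. There it fell by 2.80 ± 0.60 (edgeR, adjusted p = 1.89e-04), and the value was -3.57 without WT Leydig replicate 2. In both genotypes every Leydig library was below every section.

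Cst12 had CPM of 396, 252 and 329 in H3t KO Leydig libraries and 958, 1316 and 1486 in H3t KO sections. It fell by 2.14 ± 0.53 (edgeR, adjusted p = 0.00471). In WT it had 219, 186 and 504 CPM in Leydig libraries and 355, 222 and 287 in sections, and the groups overlapped (-0.89 ± 0.59, edgeR, adjusted p = 0.306). Defb36 had CPM of 189, 252 and 65.8 in H3t KO Leydig libraries, all below the 446 to 538 CPM of H3t KO sections, at -1.61 ± 0.55 (edgeR, adjusted p = 0.0563). That value passed the threshold in DESeq2 (-1.49, adjusted p = 0.0162) and without any 1 of 9 of the 12 libraries. Ctsl in H3t KO, at -1.21 ± 0.49 (adjusted p = 0.113), passed it without any 1 of 4 libraries.

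Defb19 had CPM of 1679, 1663 and 1118 in H3t KO Leydig libraries and 1688, 2229 and 1660 in H3t KO sections, at -0.50 ± 0.47 (edgeR, adjusted p = 0.613). The ranges overlapped. Clu was at -0.77 ± 0.45 (adjusted p = 0.345) in H3t KO, and in WT both were uncalled as well, at -1.04 ± 0.55 (adjusted p = 0.188) for Defb19 and -0.63 ± 0.46 (adjusted p = 0.357) for Clu. Defb19 in WT passed the threshold without WT Leydig replicate 1 (-2.19, edgeR, adjusted p = 0.0348), and Clu in H3t KO without WT Leydig replicate 3 (-1.28, adjusted p = 0.0386).

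The within-library ratios separated the lit areas in H3t KO. Defb19 per Cst9 was 3.07, 4.71 and 5.67 in H3t KO Leydig libraries and 0.899, 1.39 and 0.893 in H3t KO sections. Clu per Cst9 was 11.9, 14.2 and 21.7 in H3t KO Leydig libraries and 4.05, 4.39 and 4.59 in H3t KO sections. Neither ratio overlapped, with means 4.22 and 3.67 times as high in the Leydig libraries, and each had the exact p of 0.1 described above. Defb36 per Defb19 was lower there, at 0.112, 0.152 and 0.0588 in H3t KO Leydig libraries and 0.264, 0.241 and 0.322 in H3t KO sections. Cst12 per Cst9, at 0.724, 0.714 and 1.67 in H3t KO Leydig libraries, overlapped the H3t KO sections, with an exact permutation p of 0.6. In WT Leydig libraries Clu per Cst9 was 15.3 and 8.88 in replicates 1 and 2, and replicate 3 had no Cst9 count.

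**Figure D5:**
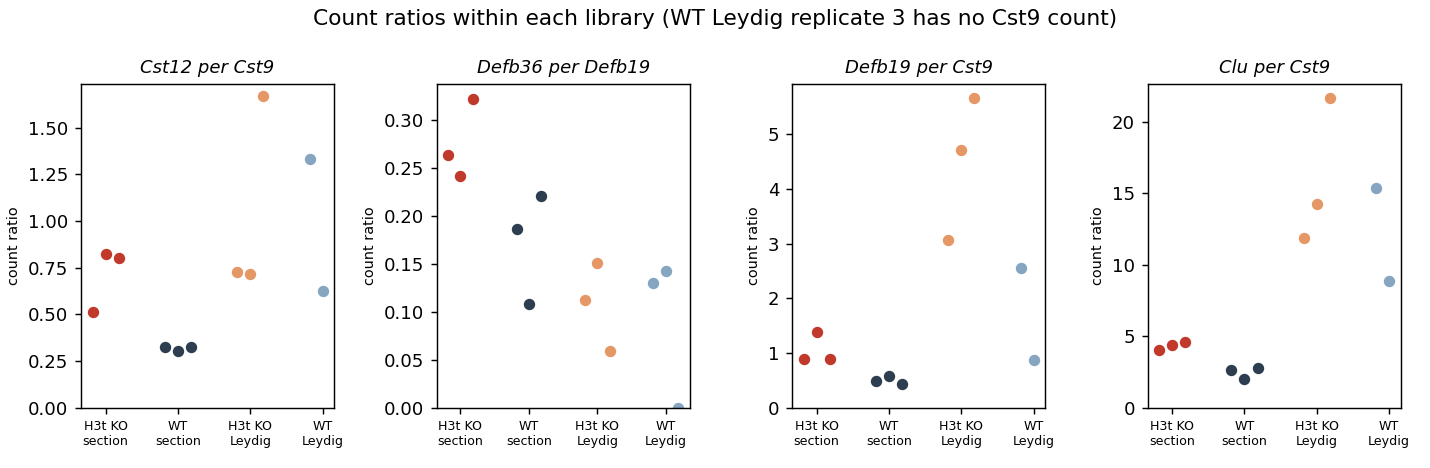
Count ratios of gene pairs within each library, by group. Cst12 per Cst9 is higher in H3t KO sections than in WT sections, and Defb19 per Cst9 and Clu per Cst9 are higher in H3t KO Leydig libraries than in H3t KO sections.

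Sertoli regulator and junction genes also moved with the lit area, 4 of 13 tested being lower and 1 higher in H3t KO Leydig libraries than in H3t KO sections. Sox9 fell by 2.26 ± 0.57 (edgeR, adjusted p = 0.00487) and Cldn11, a tight junction claudin, was called lower at -1.98 ± 0.51 (adjusted p = 0.00617), near the values of the cystatins. The higher gene was Gja1, the gap junction connexin 43, which other testis cells also make, at 1.48 ± 0.49 with an adjusted p of 0.0458 in edgeR that was 0.38 without H3t KO Leydig replicate 2, the call being lost without any 1 of 10 of the 12 libraries. Of the other secreted Sertoli genes, Inhbb, the inhibin beta B subunit, was at -2.41 ± 0.67 (edgeR, adjusted p = 0.0134) and Etd at -2.26 ± 0.72 (adjusted p = 0.0389). Each call was lost without either of 2 libraries, with an adjusted p in edgeR of up to 0.0587 for Inhbb, without H3t KO section replicate 3, and up to 0.284 for Etd, without H3t KO Leydig replicate 1, where Etd was at -1.56. In WT, Gja1 was higher in Leydig libraries at 2.08 ± 0.65, with an adjusted p of 0.227 in edgeR without WT Leydig replicate 2, and Ctsh at 2.72 ± 0.66, with an adjusted p of 0.446 without WT Leydig replicate 1. Inhbb was lower there at -2.82 ± 0.87, resting on 3 counts in WT Leydig libraries. Its call was lost without any 1 of 5 of the 12 libraries, with an adjusted p of up to 0.16 in edgeR, and its value ran between -8.65 and -2.13. Cst8 was lower too, at -1.98 ± 0.65, with an adjusted p of 0.19 in edgeR without WT section replicate 2. The Cst8 call was lost without any 1 of 8 of the 12 libraries. Leydig markers were at 3.28% in H3t KO Leydig libraries and 1.77% in H3t KO sections, and their part in these values was not tested.

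Taking the 4 groups in order of mean CPM, the genes had different profiles. Cst9 ran from 1778 ± 156 in H3t KO sections through 903 ± 183 in WT sections and 366 ± 175 in H3t KO Leydig to 154 ± 149 in WT Leydig libraries (SD, n = 3 each), and only the last pair overlapped. Cst12 stood at 1253 ± 269 in H3t KO sections, and the other groups, at 288 ± 66.4 in WT sections, 326 ± 72.2 in H3t KO Leydig and 303 ± 175 in WT Leydig libraries, overlapped one another. Defb19 was sorted by genotype, with 1859 ± 321 in H3t KO sections and 1487 ± 320 in H3t KO Leydig libraries overlapping, and 447 ± 76.2 in WT sections and 283 ± 127 in WT Leydig libraries overlapping below them. Clu had 7714 ± 761 in H3t KO sections and 5266 ± 1139 in H3t KO Leydig libraries, both above the overlapping 2272 ± 745 in WT sections and 2112 ± 812 in WT Leydig libraries. Defb36 had 506 ± 52.4 in H3t KO sections, and 169 ± 94.7 in H3t KO Leydig libraries overlapped the 76.5 ± 27.4 of WT sections. Ctsl had 1818 ± 406 in H3t KO sections, and its other groups overlapped, at 878 ± 196 in H3t KO Leydig, 595 ± 180 in WT sections and 803 ± 466 in WT Leydig libraries.

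Likeness of profile was measured as the root mean square difference of centred log2 CPM over the 12 libraries, as a description. Defb19 and Clu were the most alike pair of the 6 genes, at 0.481, and Cst9 and Cst12 the least alike, at 1.59. That rank rested on WT Leydig replicate 3, the shallowest library, with 0 counts of Cst9 and 3 of Cst12. Over the other 11 libraries Cst9 and Cst12 were at 0.752 and the least alike pair was Cst9 and Defb19, at 1.22, while Defb19 and Clu were at 0.486. Among the other 5176 genes tested, the nearest to the mean profile of the 6 genes were Uggt1 (0.297), Cd2ap (0.383), Itpkb (0.384), Capns1 (0.406) and Mrps6 (0.419), beside a median of 1.38. The nearest single genes were Marcksl1 for Cst9 (0.593), Gpr55 for Cst12 (0.437), Clock for Defb19 (0.346), Gpx1 for Defb36 (0.288), Uggt1 for Clu (0.248) and Aldh7a1 for Ctsl (0.380). Without WT Leydig replicate 3, Uggt1 and Itpkb were the 2 of these 5 genes still among the nearest to the mean profile, and the nearest single gene was another one for all 6 genes. All libraries and their depths are shared by these comparisons.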

How the data were processed

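Per the labels and the submitters' processing notes, libraries were made by photo-isolation chemistry, reads were handled with UMI-tools, Trim Galore, HISAT2 and featureCounts, and aligned to GRCm38; versions and counting settings are not given. The authors deposited raw counts per gene, whole numbers for 28595 genes, 2206 of them at 0 throughout. The library totals behind each value run from 5947 to 566527 counts, and intervals cover counting error only.

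Counts were tested with edgeR 4.0.16 (robust quasi-likelihood, R 4.3.3), with 1 coefficient per group over all 12 libraries, TMM scaling, full library totals and Benjamini-Hochberg adjustment at 0.05. The ± of a fitted log2 fold change is an SE derived from that test. It is the absolute log2 fold change divided by the square root of the F statistic. The low-count filter (minimum count 10, or 66.1 CPM, in at least 3 libraries) left 5182 genes. DESeq2 1.42.0, other scalings, no filter, fewer groups, a replicate block and leaving out each library were alternatives. Each fit without a library repeated the filter and the scaling, so the genes tested changed. They numbered 2285 without WT section replicate 1 and 8160 without WT Leydig replicate 1, beside 5182 in the main fit. The parts of library, filter and scaling in such moves were not tested apart. Steps were tested on simulated data. Single values were compared by exact two-sided permutation tests.

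Members and gene lists were chosen with earlier results of these data known, and the full library totals after fits had been compared. Named are the 7 genes, in each related list the 2 called genes of smallest p per direction and comparison, and the 5 genes nearest to the mean profile with the nearest to each gene (log2 CPM, prior count 2). A gene that this rule names is not reported here. Deviations of same-numbered libraries correlated at 0.243, 0.132 and 0.194 between H3t KO and WT sections, above 0.1 in every pair. Numbers were taken as pairs only in the alternative fit with a replicate block. The main fit and the permutation tests left the libraries unpaired. Any pairing comes from the data, since the labels give a number only. No replicate pair was a duplicate library, with chi-square per degree of freedom of 3.04 to 10.1.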

Additional observations from a re-analysis of the deposited data

How the results depend on the processing

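Of 515 recomputed values of the 7 genes, 440 kept direction and side of the threshold, 36 reversed, 30 passed it newly and 9 no longer passed. Of 518 for related genes, 444 kept both, 73 no longer passed and 1 reversed. The cause was not tested. Genes called in sections, H3t KO against WT, numbered 5, but 0 with scaling to Sertoli counts. In Leydig libraries they numbered 1, but 2 with library size alone and 2 in DESeq2. In Leydig against section of H3t KO they numbered 2, but 0 with Sertoli scaling and 4 each in DESeq2, with library totals recomputed after the filter, with only the 2 groups compared and without the shallowest Leydig library of each genotype. The log2 ratio of all 7 genes to Sertoli counts was -0.0171, and -0.396 with other secreted genes as denominator. Leaving out each library gave 5 to 7 genes called in sections, 0 to 2 in Leydig libraries, 2 to 5 for Leydig against section of H3t KO, 1 to 2 in WT, 0 to 0 for the interaction, and -0.0932 to 0.106 for that log2 ratio. Reversed log2 fold changes with Sertoli scaling were, for H3t KO against WT sections, Cst9 at -0.78, Ctsl at -0.11 and Slc11a2 at -0.099, for H3t KO against WT Leydig, Cst12 at -0.20, for H3t KO Leydig against section, Defb19 at 0.97, Clu at 0.77 and Ctsl at 0.23, and for WT Leydig against section, Clu at 0.082 and Ctsl at 0.62. Ctsl for WT Leydig against section was also 0.51 with library size alone, 0.0050 in DESeq2, 0.20 with recomputed totals, 0.45 with only the 2 groups and 0.12 without the shallowest libraries. Ctsl for H3t KO against WT Leydig was 0.095 with library size alone, 0.60 with no filter and 0.045 with the replicate block. Cst12 for the same comparison was -0.15 with recomputed totals and -0.043 with only the 2 groups. Leaving out each library reversed Cst12 (-0.30 to 0.97) and Ctsl (-0.82 to 0.99) for H3t KO against WT Leydig, and Ctsl (-1.09 to 0.49) for WT Leydig against section. Calls over all genes in sections, 1170 higher and 2024 lower, were 1861 and 1707 with library size alone, 152 and 2925 with Sertoli scaling, 2390 and 2848 with only the 2 groups and 2416 and 4639 with no filter. The replicate block changed 1 call of these genes, that of Ctsl in sections. Outside the comparison of sections no same-numbered pair of libraries correlated above 0.1, with values from -0.107 to 0.056. Recomputed totals, the fit without the shallowest Leydig libraries and the likeness of profiles without WT Leydig replicate 3 were added after seeing the data. Leydig depth, at most 54882 counts, limits what could be detected there.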
